A study of Mus musculus with 27 samples.

Results

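The regions described here are short stretches of the microglial genome that hold few CpG sites and carry little DNA methylation. A CpG is a cytosine followed by a guanine, and the methylated fraction of a CpG is the share of DNA copies that carry the mark there. The autosomes (chromosomes 1 to 19) were divided into windows of 1000 bases, and only CpG positions listed in both whole-genome bisulfite libraries were used, 1 library of control microglia and 1 of ND1-transduced microglia. A window was a member when it held 5 to 9 such shared positions and their mean fraction in the control library was under 0.30. This gave 7196 members among 703453 windows of 5 to 9 shared positions, which is 1.02% of these CpG-poor windows, and among 2167530 windows with any shared position. The members held 50222 of the 14695943 shared positions.

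All cells came from the cortex of wild-type C57BL/6 mice at postnatal day 1, per the labels. Control microglia were primary cultured microglia, whose medium and lentiviral treatment the labels do not give separately. ND1-transduced microglia received a lentivirus expressing ND1 (a name the labels do not spell out) together with one expressing M2rtTA. They were then kept in a neuronal medium with B27, BDNF, GDNF and NT3, and doxycycline was given 1 time to switch the transgene on. RNA was sequenced from 15 libraries in 5 groups of 3: both kinds of microglia, each sampled at day 2 and again at day 7, and neurons cultured from postnatal day 1 cortex. The labels give no day for the bisulfite libraries, and the 10 immunoprecipitation libraries of the series were not used. The question addressed was whether microglial low-methylated windows outside CpG-dense DNA differed between control and ND1-transduced cells, and which genes lie near them.

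Most CpGs in mammalian DNA are methylated, and the best-known exceptions are CpG islands, the CpG-dense stretches at many gene starts. Low methylation in CpG-poor DNA is a feature of many enhancers and of some tissue-specific promoters, where transcription factor binding is accompanied by local loss of the mark. In microglia and other macrophages such elements are known to be bound by PU.1 (encoded by Spi1) together with partners such as IRF8, RUNX1 and MEF2C.

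Windows themselves are given by position, and the letters shown are gene starts that lie in members. A start of 226 genes, 246 starts in all, lay in a member among the 31396 starts of the RefSeq promoter table (GRCm38.p6). Such a gene can have other starts outside members. The sequences below are the 250 bases before the start of 5 of the 7 genes of the lists used here whose whole promoter lies inside 1 member, with each CpG measured in both libraries in capitals. The 5 printed have between 1 and 4 measured CpGs in 250 bases, and Lyz2, among the 7 but not printed, has 0. A CpG left in small letters was not listed in both libraries, so a promoter can hold more CpGs than were measured.
Ptprc: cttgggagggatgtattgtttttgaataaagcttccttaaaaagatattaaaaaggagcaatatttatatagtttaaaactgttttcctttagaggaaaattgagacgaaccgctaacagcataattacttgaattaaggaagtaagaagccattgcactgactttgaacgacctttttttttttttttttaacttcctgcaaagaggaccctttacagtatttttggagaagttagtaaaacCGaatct
Fcgr3: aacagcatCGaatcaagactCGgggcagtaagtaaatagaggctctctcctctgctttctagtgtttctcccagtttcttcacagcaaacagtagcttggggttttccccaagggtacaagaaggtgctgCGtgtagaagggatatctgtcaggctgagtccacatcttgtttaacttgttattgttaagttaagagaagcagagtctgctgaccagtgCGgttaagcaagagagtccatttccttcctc
Il1rn: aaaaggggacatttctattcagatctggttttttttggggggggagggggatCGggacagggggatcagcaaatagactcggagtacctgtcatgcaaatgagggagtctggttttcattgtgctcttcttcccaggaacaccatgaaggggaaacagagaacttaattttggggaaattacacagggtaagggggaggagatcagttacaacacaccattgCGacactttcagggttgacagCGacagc
Ctss: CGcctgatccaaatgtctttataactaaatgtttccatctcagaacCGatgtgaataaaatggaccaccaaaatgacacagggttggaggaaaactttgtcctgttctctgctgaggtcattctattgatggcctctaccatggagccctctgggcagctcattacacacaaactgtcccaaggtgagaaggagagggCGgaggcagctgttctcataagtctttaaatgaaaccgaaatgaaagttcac
Neurod4: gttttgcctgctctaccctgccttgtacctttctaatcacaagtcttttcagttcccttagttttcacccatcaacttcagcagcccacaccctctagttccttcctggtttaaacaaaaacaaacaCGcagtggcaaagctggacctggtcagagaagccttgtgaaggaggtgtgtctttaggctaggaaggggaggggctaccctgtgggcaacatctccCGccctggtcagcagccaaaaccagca
Ptprc encodes CD45, the pan-leukocyte phosphatase. The stretch printed is chr1:138175306-138175555 on the minus strand, and its single measured CpG, 7 bases before the start, had a fraction of 0.0476 in control and 0 in ND1 cells. Fcgr3 encodes an Fc receptor for IgG (chr1:171059404-171059653, minus strand). Its 4 measured CpGs had fractions between 0 and 0.0667 in control and between 0.0513 and 0.125 in ND1 cells. Il1rn encodes the interleukin 1 receptor antagonist (chr2:24345041-24345290, plus strand), and its 3 measured CpGs were at 0, 0 and 0.0714 in control and at 0 in ND1 cells. Ctss encodes cathepsin S, a lysosomal protease of antigen-presenting cells (chr3:95526536-95526785, plus strand). Here the CpG 250 bases before the start was at 0.667 in control and 0.714 in ND1 cells, while those 204 and 52 bases before it were at 0.286 and 0.333 in control and at 0.256 and 0.20 in ND1 cells. Neurod4 encodes a neurogenic transcription factor (chr10:130280255-130280504, minus strand), and its CpGs 123 and 27 bases before the start were at 0.0930 and 0 in control and at 0 and 0.136 in ND1 cells. At Ptprc, Fcgr3, Il1rn and Neurod4 every measured CpG was thus at 0.136 or less in both libraries, and at Ctss the CpGs were intermediate. Neurod4 differed from the other 4 in that its RNA was listed at 0 in all 6 control libraries. The number of reads behind each fraction is unknown, so a difference at a single CpG has no error here.

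Methylation of the members was low in both libraries. Because the control library chose the members, the following values are a description. The mean fraction over the members was 0.194 in control and 0.208 in ND1-transduced microglia, a difference of 0.0135 with an SD over windows of 0.0447. Over all CpG-poor windows the means were 0.776 and 0.779, a difference of 0.00325 with an SD of 0.0473. In ND1 cells 6086 members (84.6%) were also under 0.30, 1045 lay from 0.30 to under 0.40, 64 from 0.40 to under 0.50 and 1 at 0.50 or more. In the other direction, 860 windows were under 0.30 in ND1 cells and not in control, against 1110 members that crossed upwards, out of 6946 windows under 0.30 in ND1 cells. Just inside the threshold, the 961 members at 0.28 to 0.30 averaged 0.290 in control and 0.307 in ND1 cells. Just outside it, 1085 windows at 0.30 to 0.32 averaged 0.310 and 0.326. The SD of the difference was 0.0531 for members of 5 positions and 0.0372 for members of 9.

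Individual CpGs inside members varied. Of the 50222 positions, 46.2% were under 0.10 in control and 43.9% in ND1 cells, and 10.5% and 11.9% were over 0.50. The low share over 0.50 follows in part from the threshold on the control mean.

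To measure the difference at positions that had not chosen the window, windows were selected on their odd-ranked positions along the window and measured at the even-ranked ones. In the 8125 windows with control odd-ranked positions under 0.30, the even-ranked positions averaged 0.280 in control and 0.287 in ND1 cells. The difference was 0.00646 with an SD over windows of 0.0663, and ND1 was higher in 53.6% and lower in 45.9% of windows. When the ND1 library made the selection (7756 windows), the even-ranked difference was 0.000953. At even-ranked positions of all CpG-poor windows the difference was 0.00322, which lies between the 2 values. In 75 windows the odd-ranked positions were higher in ND1 cells by 0.20 or more, on average by 0.242, while the even-ranked positions of the same windows differed by 0.0217 with an SD of 0.0922. In a further 757 windows higher by 0.10 to 0.20, on average by 0.133, the even-ranked positions differed by 0.0224 with an SD of 0.0840. In both sets the even-ranked difference was thus well under the odd-ranked one and above the 0.00646 of all selected windows. Neighbouring CpGs can share sequencing reads, so the even-ranked positions are not fully independent of the choice. With 1 library per condition there is no replicate, so no test of a methylation difference was possible.

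**Figure D1:**
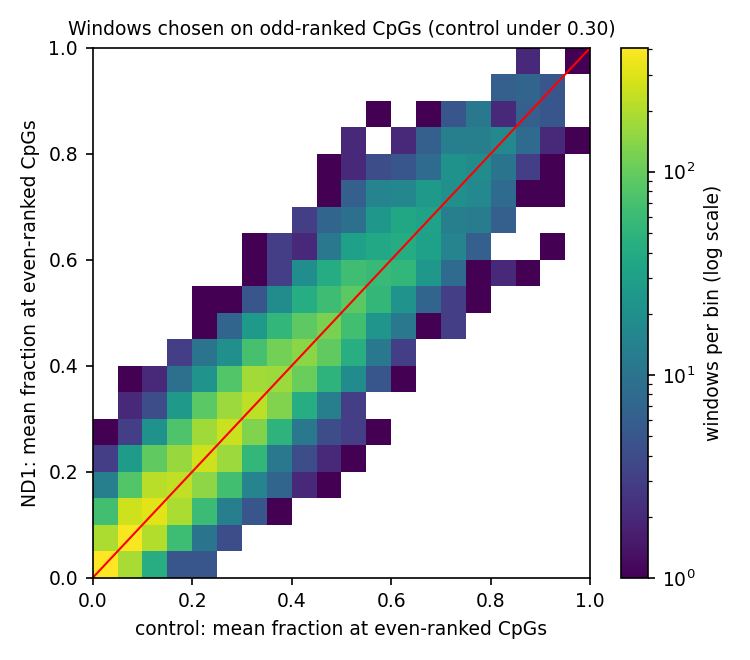
Mean methylated fraction at even-ranked CpGs in control (horizontal) and ND1-transduced microglia (vertical) for the 8125 windows chosen on odd-ranked CpGs of the control library. Colour gives the number of windows per bin of 0.05 on a log scale and the red line marks equal fractions. The windows spread on both sides of the line from 0 to 1, and 85.6% had even-ranked CpGs under 0.50 in control.

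Members occurred in 2 surroundings. Of the 7196, 2202 lay directly beside a CpG-dense low window (10 or more shared positions, mean under 0.30), and 4994 stood alone. Around stand-alone members, methylation in control was 0.713 at 1 to 2 kb from the middle of the window, 0.625 at 2 to 3 kb and 0.645 at 9 to 10 kb. Around the other class it was 0.150 at 1 to 2 kb, 0.290 at 2 to 3 kb and 0.520 at 9 to 10 kb. Low values near this class follow in part from its definition. So do high values close to stand-alone members, which by definition have no CpG-dense low window directly beside them. Flanks in ND1 cells were close to control in both classes: 0.717 for stand-alone members and 0.152 for the others at 1 to 2 kb. Even-ranked positions of odd-selected windows averaged 0.310 in control and 0.318 in ND1 cells for the stand-alone class, and 0.202 and 0.206 for windows beside a CpG-dense low window. The split into these classes was made after the values were seen.

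**Figure D2:**
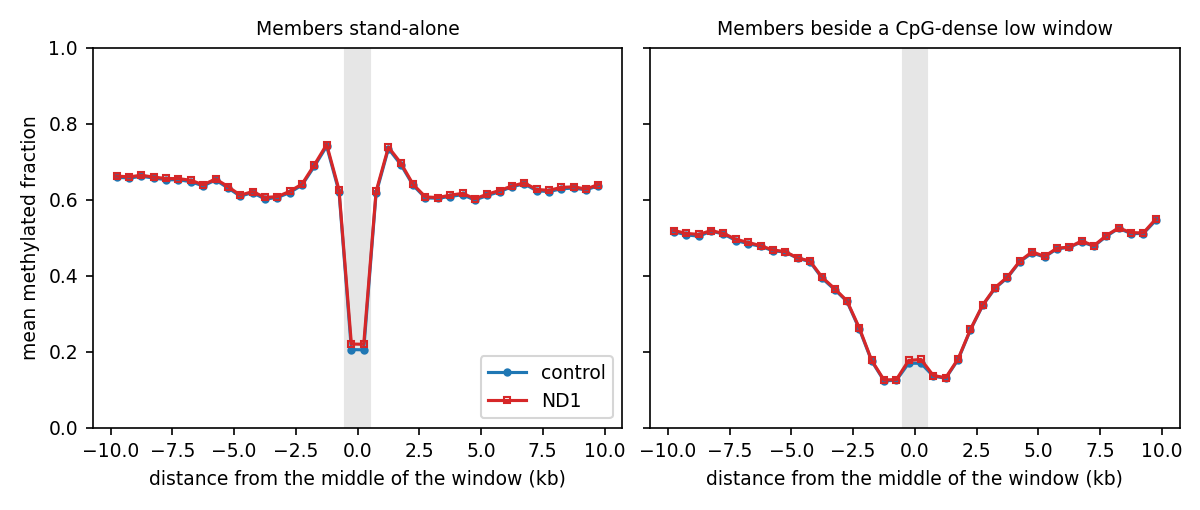
Mean methylated fraction in bins of 500 bases against distance from the middle of the window, for stand-alone members (left) and members beside a CpG-dense low window (right), in control (filled circles) and ND1-transduced microglia (open squares). The grey band marks the member. The dip of stand-alone members is no wider than the window and its immediate sides, whereas the low stretch around the other class spans several kilobases, and the 2 libraries overlie each other outside the member. Both shapes follow in part from how the 2 classes were defined.

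Compared with other CpG-poor windows, members lay nearer to genes. Within 2 kb of an annotated gene start or end lay 31.0% of members and 12.4% of all CpG-poor windows. A gene start within 50 kb, the limit used to join a window to its nearest gene, was present for 5523 members (76.8%) and for 55.0% of all CpG-poor windows. Of stand-alone members, 16.9% lay within 2 kb of a gene start or end and 56.9% lay inside a gene span, while 62.9% of members beside a CpG-dense low window were within 2 kb. Chromosome 11 had the highest share of members among its CpG-poor windows, 1.31%, and chromosome 14 the lowest, 0.829%.

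Merging members separated by at most 1 window gave 6695 regions, of which 6292 were single windows, 337 held 2 members and 66 held 3 or more. Differences between ND1 and control over the 66 larger regions ran from -0.0399 to 0.0601 with a median of 0.0126. The region with the most members had 7 and lay near Nr2f1, a nuclear receptor of the developing nervous system (chr13:78173000-78180999, mean 0.159 in control and 0.138 in ND1 cells). Other long regions lay near Robo3, an axon guidance receptor (6 members, 0.178 and 0.182), Hoxb13 (6 members, 0.137 and 0.142), Tfap2b (5 members, 0.0729 and 0.0935) and Foxa2 (5 members, 0.107 and 0.0927). The highest difference among regions of 3 or more members was at Pantr1, a long noncoding RNA gene (chr1:42688000-42691999), with 0.0630 in control and 0.123 in ND1 cells over 24 positions. At the other end, a region beside Mir196a-1, a microRNA gene within the Hoxb cluster, had 0.204 and 0.164 (chr11:96265000-96267999). With 1 library per condition these regional differences have no error.

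Genes with several members nearby were more often expressed in control microglia and more often lower in ND1 cells at day 7. Of genes with 3 or more members 43.5% reached 10 FPKM in control at day 7, against 23.9% of genes with none. RNA level in FPKM, a unit that divides fragments by transcript length and by library size, was compared with limma on log2(FPKM + 1), a scale that understates changes of low genes. A gene was called when its adjusted p (Benjamini-Hochberg over 13599 tested genes) was under 0.05 and its log2 change was at least 1 in size. The labels do not say whether the 3 libraries of a group came from separate cultures, so p-values measure only the spread between these libraries. In all, 4108 genes were joined to a member and 292 to 3 or more. Of these 292, 195 passed the filter on low values and 97 did not, and 94 of the 292 averaged under 1 FPKM in every group.

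Of the 195 tested genes with 3 or more members, 108 (55.4%) were called lower in ND1 than control microglia at day 7, against 24.5% of all tested genes. Genes with 2 members were called lower in 43.9%, with 1 member in 31.0% and with none in 21.6%. Their median log2 change was -1.30, -0.68, -0.09 and 0.10 in that order, and that of all tested genes was 0.04. Called higher were 37 of the 195 (19.0%), against 25.7% of all tested genes; this order turned when genes were joined only within 10 kb (27.9%) or members were required to be under 0.20 (28.6%). At day 2, 1 of the 195 genes (0.513%) was called lower against 0.618% of all tested genes, and 17 (8.72%) were called higher against 9.10%. The order of the higher shares at day 2 also turned with other settings. It was 14.7% within 10 kb, 9.24% within 100 kb and 14.3% for members under 0.20. In cortical neurons compared with control microglia at day 7, 110 genes (56.4%) were lower against 25.2%, and 29 (14.9%) were higher against 28.1%. The day 7 and neuron comparisons share the control day 7 libraries. Genes with more members also had more CpG-poor windows joined to them, with a median of 29 for genes with 3 or more members and 12 for genes with none, and the part of this in the shares was not tested.

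**Figure D3:**
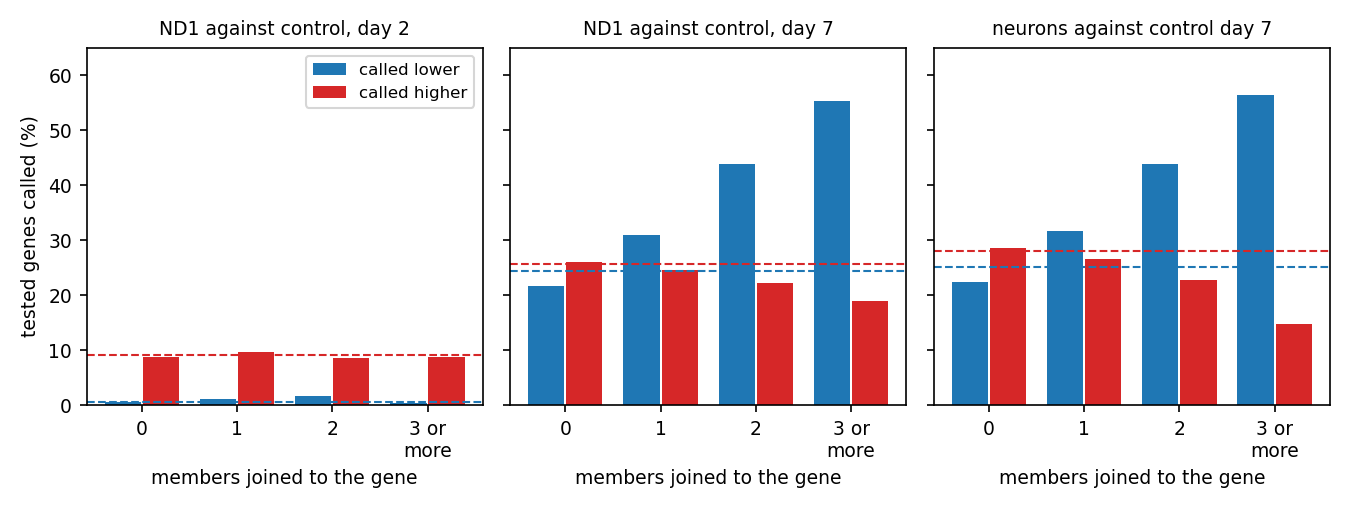
Share of tested genes called lower (blue) and higher (red) by the number of members joined to the gene, for ND1 against control at day 2 and day 7 and for neurons against control day 7. Dashed lines give the share over all 13599 tested genes. The blue bars rise from 21.6% to 55.4% at day 7 and reach at most 1.72% at day 2.

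The same relation was seen per window, which allows for the number of windows of a gene. Of CpG-poor windows joined to genes that were lower by a log2 change of 3 or more at day 7, 4.05% were members. The share was 2.18% for the other lower genes, 1.32% for genes not called, 1.14% for higher genes and 1.27% for genes higher by 3 or more. By control level at day 7, the share of members was 1.18% at genes under 0.1 FPKM, 1.91% at 10 to 100 FPKM and 3.78% above 100 FPKM. Members were thus most frequent near genes with high RNA in control microglia. RNA was measured on whole cultures, so fewer cells of a type and less RNA per cell cannot be told apart.

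Among the 9 lists of known genes, 4 microglial lists had the highest shares of members. Members made up 7.92% of the CpG-poor windows joined to 21 homeostatic microglia markers, 6.91% for 24 pan-myeloid markers, 5.54% for 23 phagocytosis and lysosome genes, 4.09% for 23 cytokine, chemokine and NF-kappaB genes, and 3.72% for 30 microglial lineage transcription factors, just below the 3.77% of 25 neurogenic transcription factors. Over all CpG-poor windows joined to a gene the share was 1.43%.

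Among lineage transcription factors, 11 of 30 genes had a member, 29 members in all, and 9 of the 11 were called lower and 1 higher at day 7, with a median log2 change of -3.62. In the whole list 22 of 30 were called lower and 1 higher, against 24.5% and 25.7% of all tested genes. Spi1 encodes PU.1, the factor required for the macrophage and microglial lineage. Its 3 members lay 0.874 to 16.1 kb from its start, all beside CpG-dense low windows, with means of 0.193, 0.0541 and 0.0806 in control and 0.267, 0.0581 and 0.0887 in ND1 cells. Spi1 RNA was 307, 334 and 306 FPKM in the control libraries at day 7 and 20.3, 14.7 and 16.4 FPKM in the ND1 libraries. The log2 change was -4.14 ± 0.08 (SE, n = 3 per group, limma adjusted p = 3.65e-15). Neurons had 0.524, 0.569 and 0.524 FPKM, below control and ND1 cells.

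Fli1, an ETS factor of blood and endothelial cells, had 5 members within its span, with a mean of 0.170 in control and 0.163 in ND1 cells. Its RNA was 28.5, 29.9 and 31.2 FPKM in control and 1.49, 0.947 and 1.22 FPKM in ND1 cells at day 7, a log2 change of -3.80 ± 0.07 (SE, limma adjusted p = 2.24e-15). Runx1, a RUNX factor of the myeloid lineage, had 3 members (0.166 in control, 0.205 in ND1 cells) and fell from between 15.5 and 16.3 FPKM to between 0.794 and 1.16 FPKM. Mef2c moved the other way: it encodes a factor used in microglia and in neurons, had 5 stand-alone members (0.178 and 0.186), and was at 12.7, 13.3 and 13.2 FPKM in control and 128, 146 and 135 FPKM in ND1 cells. Its log2 change was 3.28 ± 0.08 (SE, limma adjusted p = 2.50e-14), and it was higher in neurons too, at 76.6 to 99.4 FPKM.

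Of the 21 homeostatic markers, 13 had a member, 29 members in all, and of these 13 tested genes 9 were called lower and 1 higher at day 7. In the whole list 14 of 19 tested genes were called lower and 1 higher, against 24.5% and 25.7% of all tested genes. At day 2, 4 of the 13 were called higher and none lower by limma, against 9.10% and 0.618% of all tested genes. P2ry12 and P2ry13, neighbouring genes for purinergic receptors, had 3 and 4 members, with means of 0.202 and 0.136 in control and 0.229 and 0.147 in ND1 cells. The members joined to P2ry13 at 18.6 to 24.6 kb from its start lay inside the span of P2ry12. P2ry12 RNA was 11.9, 10.3 and 10.2 FPKM in control and 1.41, 1.30 and 1.28 FPKM in ND1 cells, and P2ry13 had log2 change -2.39 ± 0.10 (SE, limma adjusted p = 1.58e-11). Sall1, a zinc finger factor of microglia and kidney, had 3 members, all beside CpG-dense low windows (0.20 and 0.225), with RNA of 4.92 to 6.28 FPKM in control and 1.54 to 1.56 FPKM in ND1 cells. P2ry12, P2ry13 and Sall1 were each called lower at day 7.

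Of 24 pan-myeloid markers, 17 had a member, and 16 of these were called lower and none higher at day 7, with a median log2 change of -4.18. In the whole list 23 of 24 were called lower, against 24.5% of all tested genes. Ptprc, whose start is shown above, had 3 members (0.176 in control, 0.163 in ND1 cells), with RNA of 145, 142 and 151 FPKM in control and 8.21, 6.36 and 6.83 FPKM in ND1 cells at day 7. Lcp1, an actin-bundling protein of leukocytes, had 3 members (0.149 and 0.127) and a log2 change of -4.20 ± 0.08 (SE, limma adjusted p = 2.41e-15). Ly86, a partner of the receptor CD180, had 3 members (0.207 and 0.239) and fell by 4.61 on the log2 scale. Itgam, the integrin CD11b, had 2 members near its start (0.112 and 0.121) and was at 18.8 to 21.7 FPKM in control and 2.77 to 3.09 FPKM in ND1 cells. RNA thus fell at all 4 genes, while their members were higher in ND1 cells at 2 of them and lower at the other 2.

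All 13 cytokine, chemokine and NF-kappaB genes with a member were called lower at day 7, with a median log2 change of -2.73. In the whole list 19 of 23 were called lower, against 24.5% of all tested genes. Tlr4, the lipopolysaccharide receptor, had 3 stand-alone members from 0.051 to 5.05 kb from its start with means of 0.0922 in control and 0.0736 in ND1 cells. Its RNA was 34.4, 33.1 and 36.0 FPKM in control and 2.44, 2.31 and 2.29 FPKM in ND1 cells at day 7. Ccl2, a monocyte chemokine, had 4 members (0.218 and 0.248) and RNA of 44.0, 34.9 and 44.0 FPKM in control against 18.2, 16.5 and 15.9 FPKM in ND1 cells. Il1a, an interleukin 1, had 3 (0.120 and 0.170), and Ccl4, another chemokine, had 2 (0.222 and 0.198). Il1a fell by 2.61 and Ccl4 fell by 4.86 on the log2 scale.

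Of the phagocytosis and lysosome genes, all 11 with a member were called lower at day 7, and so were 22 of the 23 in the whole list (24.5% of all tested genes). Ctsd, which encodes cathepsin D, had 4 stand-alone members 2.67 to 11.7 kb from its start. One of them, chr7:142393000-142393999, had a mean of 0.0178 in control and 0.0380 in ND1 cells, and the other 3 ranged from 0.190 to 0.255 in control. Ctsd RNA was between 10952 and 11493 FPKM in the control libraries, against 726, 542 and 619 FPKM in ND1 cells at day 7. Ctsb, cathepsin B, had 4 members (0.178 and 0.184), Cst3, which encodes the protease inhibitor cystatin C, had 2 (0.192 and 0.170) and the tetraspanin gene Cd9 had 2 (0.143 and 0.159). Their log2 changes were -3.99 for Ctsb, -2.27 for Cst3 and -2.54 for Cd9.

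**Figure D4:**
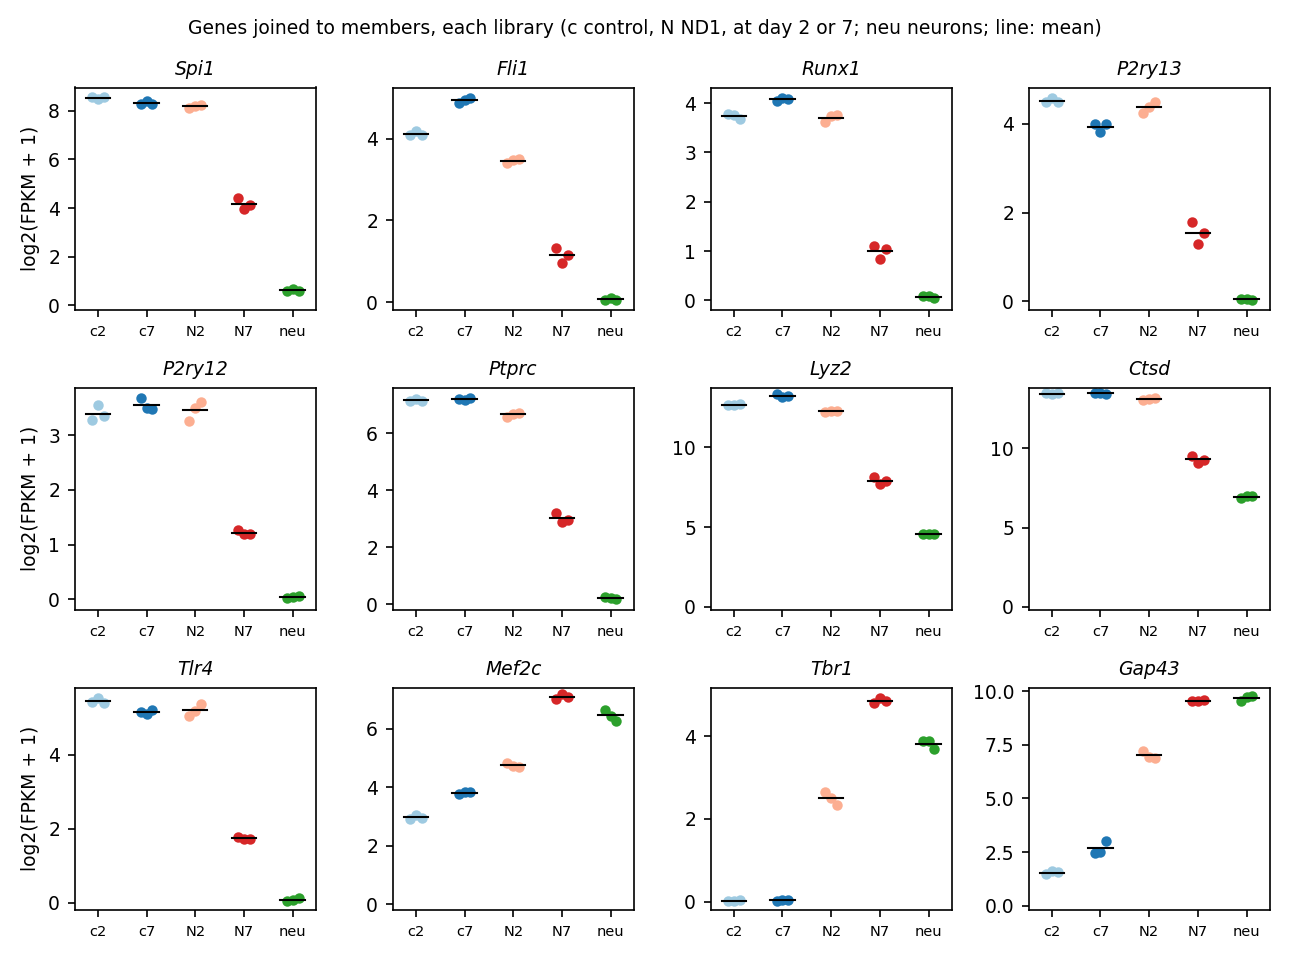
RNA level of 12 genes joined to members, as log2(FPKM + 1), with 1 point per library and a line at the mean of each group of 3 (c2 and c7 control, N2 and N7 ND1 at day 2 and day 7, neu neurons). The 9 microglial genes from Spi1 to Tlr4 are high in control and ND1 day 2 libraries and low in ND1 day 7 and neuron libraries, and Mef2c, Tbr1 and Gap43 are highest in ND1 day 7 and neuron libraries.

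Neuronal genes had members too, and their RNA rose. Among 25 neurogenic transcription factors 13 had a member, 21 members in all of which 5 stood alone, and of these 13, 12 were tested and all 12 were called higher in ND1 cells at day 7, with 9 called higher at day 2. In the whole list 22 of 23 tested genes were called higher at day 7 and 17 at day 2, against 25.7% and 9.10% of all tested genes. The list includes Neurod1. Because the labels do not spell out ND1, whether RNA of Neurod1 comes from the transgene is unknown here. Tbr1, a factor of deep-layer cortical neurons, had 3 members (0.114 in control and 0.156 in ND1 cells). Its RNA was 0.00824, 0.0255 and 0.0399 FPKM in control and 26.9, 29.4 and 27.6 FPKM in ND1 cells at day 7. Neurod2 and Insm1, both neurogenic factors, had 2 members (0.162 and 0.205) and 3 members (0.177 and 0.182), and log2 changes of 6.37 and 2.87. The windows near these genes were low in control microglia, in which the RNA of Tbr1, Neurod2 and Insm1 was under 0.14 FPKM at day 7.

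Of 25 pan-neuronal and synaptic genes only 9 had a member, 12 members in all, or 1.62% of their CpG-poor windows, and all 9 were called higher at both days. So were all 25 genes of the list, against 25.7% of all tested genes at day 7 and 9.10% at day 2. Gap43, a growth cone protein, had 2 members (0.270 and 0.282) and RNA of 4.59, 4.74 and 7.11 FPKM in control and 737, 733 and 757 FPKM in ND1 cells at day 7. Dlg2, a synaptic scaffold, also had 2 (0.251 and 0.237) and rose by 5.53 ± 0.07 on the log2 scale (SE, limma adjusted p = 2.42e-16). For lists of other cell types the share of members was 1.55% (16 astrocyte and oligodendrocyte markers) and 1.52% (14 fibroblast, mural and endothelial markers), with 5 genes each. Summed over the list, the 14 fibroblast, mural and endothelial markers reached 36.6 to 47.1 FPKM in control day 7 libraries and 41.6 to 45.4 FPKM in ND1 day 7 libraries. The 16 astrocyte and oligodendrocyte markers summed to 137 to 141 and 38.7 to 40.8 FPKM. For comparison, the 24 pan-myeloid markers summed to 23578 to 25629 FPKM in control and 969 to 1304 FPKM in ND1 libraries.

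Of the 10 genes with the most members, 6 were developmental genes whose RNA stayed under 1 FPKM in every library. Nr2f1, with the most, was expressed. It had 14 members, 10 of them beside CpG-dense low windows, with means of 0.183 in control and 0.181 in ND1 cells. Its RNA was 1.19, 0.936 and 1.03 FPKM in control, 38.2, 37.6 and 35.4 FPKM in ND1 cells at day 7 and 43.0 to 51.3 FPKM in neurons. Tfap2b, a transcription factor of neural crest and kidney, had 12 members (0.0755 and 0.0790) and was under 0.05 FPKM in every library. Hoxb13, Hoxc13, Zic4 and Foxa2, patterning transcription factors, had 11, 7, 10 and 8 members, with means of 0.110 to 0.152 in control and 0.125 to 0.145 in ND1 cells. Foxa2 was listed at 0 in 14 of 15 libraries. Vax2os, an antisense RNA gene, had 12 members (0.160 and 0.172) and was listed at 0 in all 15. Dlx6os1 (7 members, 0.164 and 0.167), also an antisense RNA, and the noncoding AI854517 (8 members, 0.124 and 0.154) rose by 3.39 and 1.77 on the log2 scale. The labels do not state counting by strand, so reads of an antisense RNA and its partner cannot be told apart. Of the 134 genes with 3 or more members of which at least 2 lay beside CpG-dense low windows, the median level in control at day 7 was 0.0618 FPKM, against 13.9 FPKM for the other 158 genes with 3 or more members.

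The largest fall among tested genes with 3 or more members was at Gm21188, a predicted gene with 7 members, which made up all 7 of its CpG-poor windows (0.0925 in control, 0.104 in ND1 cells). Its RNA was 136, 116 and 123 FPKM in control and 4.47, 3.93 and 4.08 FPKM in ND1 cells at day 7. After it and Ly86 came Pik3ap1, an adaptor of PI3 kinase in immune cells (3 members, 0.221 and 0.233), Ctsc, cathepsin C (3 members, 0.0739 and 0.139), and Tnfrsf1b, a TNF receptor (4 members, 0.211 and 0.240), which fell by 4.58, 4.37 and 4.35 on the log2 scale. Among the rises were Pantr1 (6 members, 0.124 and 0.189), with 2.82, 2.07 and 3.61 FPKM in control and 245, 262 and 253 FPKM in ND1 cells. Ntm, a neuronal adhesion protein (3 members, 0.210 and 0.224), rose by 5.05 on the log2 scale. Actr3, a subunit of the actin-nucleating Arp2/3 complex used by every cell, is 1 of the 37 genes called higher, but it was listed at 0 in all 6 control libraries and in 2 of 3 ND1 day 2 libraries. An exact 0 for such a gene can be a failed estimate, so no fold is given.

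Genes with a start in a member had higher RNA than genes starting in other CpG-poor windows, in control and ND1 microglia and in neurons. A gene with starts in several classes was counted in each of them, and its FPKM does not separate its starts. Of the 226 genes, 144 were in the RNA tables, with a median of 5.97 FPKM in control and 2.06 FPKM in ND1 cells at day 7 and 0.363 FPKM in neurons. The 1863 genes with RNA values that start in CpG-poor windows at 0.30 or more had medians of 0, 0.00818 and 0.0110 FPKM in these 3 groups. Genes starting in any other window had 1.69, 2.61 and 2.30 FPKM in the same order. Of the 113 tested genes starting in a member, 66 (58.4%) were called lower at day 7 and 16 (14.2%) higher. Over all tested genes these shares were 24.5% and 25.7%. Of 463 tested genes starting in the other CpG-poor windows, 150 (32.4%) were called lower and 122 (26.4%) higher. Those starting in a member had a median log2 change of -1.64 at day 7, and the window means at their starts were 0.170 in control and 0.175 in ND1 cells. Lyz2, which encodes lysozyme, had the highest control level among them: 10112, 9068 and 9527 FPKM in control and 275, 203 and 235 FPKM in ND1 cells at day 7, while the member at its start had 0.278 in control and 0.245 in ND1 cells.

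Promoter letters differed between these classes. Motifs were searched on both strands of the 300 bases from 250 before to 50 after each start, 1 start per gene and class. GAGGAAGT, an ETS site of the form bound by PU.1, was found at 20 of 226 genes starting in a member (8.85%), at 4.03% of genes starting in other CpG-poor windows and at 3.34% of all 25748 genes with a promoter. The core of the interferon response element bound by IRF factors, 2 copies of GAAA with 2 bases of any kind between them, was found at 26 genes (11.5%), against 4.01% and 3.50%. Other motifs were nearer to the background: the AP-1 site TGANTCA was at 9.29%, 11.7% and 7.99%, TTGCNNAA of C/EBP factors at 11.1%, 14.1% and 10.9%, and the E-box CAGATG bound by NEUROD factors at 17.3%, 23.8% and 17.3%. CAGCTG was at 16.4%, 17.3% and 16.2%, and TATAAA, the letters of the TATA box, at 19.9%, 20.9% and 14.2%. A TATAAA match was counted on either strand and at any distance from the start, so it need not be a TATA box. No promoter starting in a member had overlapping matches of GAGGAAGT and the interferon response element core, and other overlaps were not counted. Of the promoters printed above, that of Ctss holds the interferon response element core from 21 bases before the start. It also holds CAGCTG and TATAAA from 46 and 233 bases before the start. That of Fcgr3 holds TTGCNNAA from 28 bases before it, and that of Ptprc holds TATAAA from 187 bases before it. Both TATAAA matches read TTTATA as printed, so they lie on the opposite strand. None of the printed stretches holds GAGGAAGT, and those of Il1rn and Neurod4 hold none of the motifs searched. A match is a run of letters and was not measured as a bound site.

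Methylation differences were small beside their spread over windows, both near genes that fell and near genes that rose. In windows selected on odd-ranked positions and joined to genes lower by a log2 change of 3 or more (520 windows, 315 genes), even-ranked positions averaged 0.209 in control and 0.214 in ND1 cells, a difference of 0.00484 with an SD over windows of 0.0622. For genes higher by 3 or more (324 windows, 220 genes) the means were 0.287 and 0.293, a difference of 0.00583 with an SD of 0.0687. For the other lower genes (934 windows) the difference was 0.00945 with an SD of 0.0580. For the other higher genes (679 windows) it was 0.00476 with an SD of 0.0616. In stand-alone windows the differences for these 2 classes were 0.0125 and 0.0046. Genes not called had a difference of 0.00655 and windows with no gene start within 50 kb one of 0.00639. Across 2924 tested genes, the mean even-ranked difference and the log2 change at day 7 had Pearson r of -0.0107 and Spearman rho of -0.00451, given as a description, since all points share the same 2 bisulfite libraries. By list, the even-ranked difference was 0.0297 for the homeostatic markers (28 windows, SD 0.0670), 0.0242 for the lineage factors (29 windows, SD 0.0577), 0.0344 for the neurogenic factors (19 windows, SD 0.0502), 0.00119 for the pan-myeloid markers (26 windows, SD 0.0725) and -0.00356 for the phagocytosis and lysosome genes (20 windows, SD 0.0746). It was 0.00925 for the cytokine, chemokine and NF-kappaB genes (21 windows, SD 0.0566), -0.0121 for the pan-neuronal genes (14 windows, SD 0.0446), 0.0234 for the astrocyte and oligodendrocyte markers (7 windows, SD 0.0470) and -0.0360 for the fibroblast, mural and endothelial markers (5 windows, SD 0.0728). The value for all windows was 0.00646. Of the 9 lists, 5 lay above it and 4 below, and neither the microglial nor the neuronal lists lay all on the same side. The labels give no day for the bisulfite libraries, so whether they match the day 2 or the day 7 RNA is unknown.

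**Figure D5:**
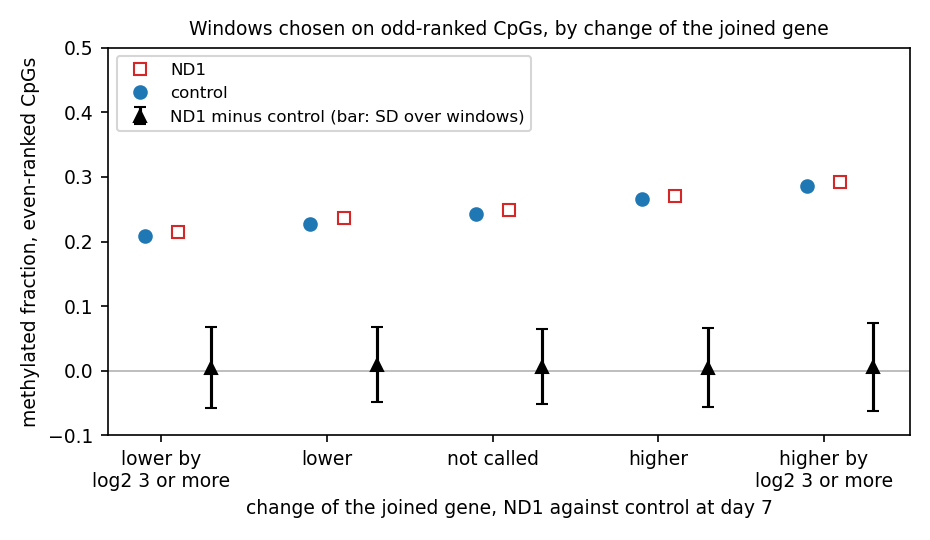
Mean methylated fraction at even-ranked CpGs of windows chosen on odd-ranked CpGs, in control (filled circles) and ND1-transduced microglia (open squares), by the change of the joined gene at day 7. Triangles give ND1 minus control, with bars of 1 SD over windows. The differences lie between 0.00476 and 0.00945 in all 5 classes, while the control level runs from 0.209 to 0.287.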

How the data were processed

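Members, gene lists and tests were chosen with earlier results of these data known. The bisulfite libraries were made by post-bisulfite adaptor tagging, per the labels' protocols. The authors deposited a methylated fraction for each CpG position (mm10), with no read counts, so the depth is unknown. Neither aligner nor caller is given in the sources used here. Each position entered once, both strands combined, as the deposited table lists it. Positions listed in both libraries were averaged per window with equal weight. Missing positions make some windows look CpG-poor.

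The authors deposited 1 table of FPKM per RNA library, made with TopHat, Bowtie2, Cuffdiff and Cufflinks, per the submitters' processing notes. Depth is unknown, and the FPKM of a library summed to 428966 to 739688. All 15 libraries were fitted together in limma 3.58.1 (R 4.3.3) on log2(FPKM + 1) with a mean-variance trend, for the 13599 genes that reached 1 FPKM in 3 or more libraries. The script was tested on simulated data. The main fit did not pair libraries by the replicate number in the labels, and a fit with that number as a block is given below.

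A window was joined to the nearest gene start within 50 kb. Of 24293 gene symbols, 23040 matched RefSeq (GRCm38.p6) by symbol and 1078 by synonym. Strand and start were known for 17983, and for 6135 both ends of the span served as starts. No genome was given, so promoters from the RefSeq table were printed in place of window sequences. Genes were named by a rule: up to 4 per list with the most members, the 10 with the most members, the 5 largest falls and rises among tested genes with 3 or more members, the 10 longest regions and those with the 5 highest and lowest differences. List genes with their start in a member were added. Some genes the rule names are not reported here. Alternatives were other thresholds, position ranges, window offsets, join distances, pseudocounts, filters, quantile normalization, a replicate block and leaving out each library.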

Additional observations from a re-analysis of the deposited data

Results flagged for a closer look

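The difference between the ND1 effect at day 7 and that at day 2 was tested as an interaction term in limma, and 45 of the 49 tested genes that the naming rule picks passed at an adjusted p under 0.05. The 4 that did not pass were Slc1a2 (adjusted p = 0.393), Olig1 (0.797), Col1a1 (0.494) and Actr3 (0.0785, listed at 0 in control libraries). The rule picks some of the 49 by their change at day 7. The same share over all tested genes was not counted, so 45 of 49 has no background here. The values below are for 9 genes chosen among those that passed: 1 gene from each of 7 lists, the largest fall, and Pantr1, the largest rise after Actr3. Day 7 minus day 2, on the log2 scale, was -3.14 for Fli1, -3.76 for Lcp1, -3.81 for Ctsd, -3.84 for Gm21188 and -1.51 for Mbp, which encodes myelin basic protein. Ccl2 had the smallest difference, -0.581 (limma adjusted p = 1.01e-03), and its control level itself was 268 to 293 FPKM at day 2 and 34.9 to 44.0 FPKM at day 7. The neuronal genes went the other way, with 2.35 for Tbr1, 2.81 for Dpysl3, a growth cone protein, and 2.10 for Pantr1. Adjusted p for the other 8 ran from 5.32e-13 (Gm21188) to 1.21e-06 (Pantr1). At day 2 the log2 change of Fli1 was -0.66.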

How the results depend on the processing

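Thresholds of 0.20 and 0.40 gave 3329 and 14631 members. Over the alternatives run, the mean difference of the members ran from 0.00918 to 0.0171 (0.0135 as reported) and that at even-ranked positions from 0.000953, when ND1 made the selection, to 0.00747 (0.00646 as reported). Among genes with 3 or more members, joins within 10 kb gave, at day 7, 37 lower and 19 higher of 68, at day 2, 0 lower and 10 higher, and in neurons 37 lower and 17 higher. A threshold of 0.20 gave 32 and 18 of 63, 0 and 9, and 31 and 15. The share higher at day 2 was thus 14.7% within 10 kb and 14.3% at 0.20, against 9.10% of all tested genes. Over all tested genes, the shares lower and higher were 24.5% and 25.7% at day 7 and 25.2% and 28.1% in neurons. Joins within 100 kb gave 57 higher of 249 at day 7 and 46 in neurons. Counting stand-alone members only, an alternative chosen after seeing the data, gave 50 lower and 11 higher of 86 at day 7, 0 and 6 at day 2, and 53 and 7 in neurons. Genes with a strand-specific start, also chosen after seeing the data, gave 9 higher of 148 at day 2. Fewer genes were tested under these alternatives other than the join within 100 kb, and the share lower at day 7 was 54.4% within 10 kb, 50.8% at 0.20, 58.1% for stand-alone members and 59.5% for strand-specific starts. At day 2, a pseudocount of 0.1 FPKM gave 5 lower (2.56%, against 1.15% of all tested genes) and 27 higher. The share over all tested genes is not given here for the 27. Quantile normalization gave 4 lower (2.05%, against 1.17%). Leaving out 1 library gave 1 to 3 lower at day 2: 3 without ND1 day 2 replicate 3, and 2 without control day 2 replicate 1 or replicate 3. The single gene called lower at day 2 is thus not a stable count. With the replicate number as a block, the counts at day 7 were 108 lower and 37 higher, the same genes as without it, and the block changed no other count; same-numbered libraries correlated at -0.226 to 0.161, with 2 of 30 pairs over 0.1. Of 533 alternative values for named genes, 531 kept the call and 2, both for Olig1, came past the threshold. The methylation comparison rests on 1 library per condition of unknown depth.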

Other observations

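Beyond the genes of the lists, the genes with a start in a member and the highest control RNA were myeloid genes. They were chosen here by their level after the values were seen. Ccl6, a chemokine, had a mean of 585 FPKM in control and 19.5 FPKM in ND1 microglia at day 7, and the window at its start had 0.254 and 0.208. C3ar1, the receptor for complement C3a, had 494 and 23.3 FPKM, with 0.215 and 0.242. Slfn2, a schlafen gene of immune cells, had 491 and 26.1 FPKM, with 0.105 and 0.0873. Ms4a6c, a membrane protein of the MS4A family, had 473 and 24.9 FPKM, with 0.0795 and 0.105. Pld4, a phospholipase D family exonuclease of lysosomes, had 408 and 19.9 FPKM, with 0.255 and 0.252. All 5 were called lower at day 7, with log2 changes from -4.84 to -4.19, and the windows at their starts were under 0.26 in both libraries. Of tested genes starting in a member 58.4% were called lower, and of all tested genes 24.5%. The 5 were chosen on the control level at day 7, which is 1 side of this comparison.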
